A study of Mus musculus with 16 samples.

Results

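Adipocytes are the lipid-filled cells of fat, and a mouse kidney lies in a fat pad that also reaches into its hilum. The genes described here are 8 transcripts that such cells are known for: Fabp4, Adipoq, Plin1, Cfd, Lep, Cidec, Cidea and Ucp1. They were taken by symbol from the 57186 genes of a kidney count table, and all 8 were among the 25408 genes with at least 100 counts over all libraries. White adipocytes store triglyceride in a single droplet and secrete hormones such as adiponectin and leptin, while brown and beige adipocytes carry many small droplets and burn fat for heat through the mitochondrial uncoupling protein UCP1. Perirenal fat of the mouse can hold both kinds.

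Total RNA was sequenced from 1 kidney library per mouse for 16 male mice on a C57BL/6J background, with 4 libraries in each of 4 groups. Every mouse was Elmo1H/H, homozygous for an allele that raises expression of the engulfment gene Elmo1, so no group had normal Elmo1. The non-diabetic groups were Elmo1H/H Ins2+/+, either untreated (ND_C) or given vitamin B12 (ND_B12). The diabetic groups were Elmo1H/H Ins2Akita/+, untreated (D_C) or given B12 (D_B12). The Akita allele encodes a misfolded proinsulin that kills beta cells, so these mice make little insulin, a hormone that keeps fat stored. The drinking water of the treated mice carried B12, dosed at 10 mg/kg per day, starting when they were 8 weeks old. The sources differ on its duration, 8 weeks in the methods, with kidneys taken at 16 weeks of age, and 16 weeks in the labels. How much fat was trimmed from each kidney is not given in the sources used here.

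Totals ran from 65271308 to 91771136 counts per library. The 11 kidney segment markers summed to between 1063906 and 1334746 normalized counts in every library, so the kidney signal was similar in all. What share of the RNA came from kidney cells was not measured. Groups are those of the labels. A match of the libraries to the group means printed in the study's supplement placed 5 libraries in their labelled group and 11 in another, and changed the genotype of 2, D_C 1 and ND_B12 4 (group and replicate number). The printed D_C means corresponded to the 4 libraries labelled D_B12, and the printed D_B12 means to D_C 2, 3 and 4 and ND_B12 4, which is close to an exchange of the treatments of the diabetic mice. If the supplement is right, D_B12 minus D_C as given below nearly exchanges treated and untreated diabetic mice. Its sign need not turn for every member, since D_C 1 would leave the comparison and ND_B12 4 would enter it. Ucp1 would have 0, 30.2, 0 and 12.6 normalized counts in D_B12 and 63.2, 1009, 0 and 0 in D_C. That is lower with B12, as by the labels, and was not tested. The printed ND_C means corresponded to ND_C 1, 2 and 4 and ND_B12 1. The printed ND_B12 means corresponded to ND_B12 2 and 3, ND_C 3 and D_C 1. The main values below are also given without D_C 1 and ND_B12 4. That check leaves the other libraries that the match moved, among them ND_C 3 and ND_B12 1, as labelled. It also leaves D_C 2, 3 and 4 in D_C, though the match placed them in D_B12. If the supplement is right, D_C minus ND_C below is therefore mostly treated diabetic against untreated non-diabetic mice. That covers the calls of Lepr, Prdm16, Cpt1b, Pdgfra and Cd34 in D_C minus ND_C. Library names also carry a date, which rises through the groups, so that date and group can hardly be told apart.

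In the GRCm39 build, Adipoq is at chr16:22964106-22976810 on the plus strand, Ucp1 at chr8:84016647-84025085 (plus), Lep at chr6:29060216-29073877 (plus) and Cfd at chr10:79726668-79728496 (plus). Fabp4 is at chr3:10268785-10273737 (minus), Plin1 at chr7:79369966-79382718 (minus) and Cidec at chr6:113400691-113412721 (minus). Annotated genes on the opposite strand overlap Fabp4 (Gm66293), Adipoq (Gm59709), Cidec (Gm52871) and Cidea (B430212C06Rik). Whether counting used the strand is not given in the sources used here, so reads of these pairs may not be separated.

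The 250 bases before the start of the main transcript are shown for 3 members that the results turn on. They are Adipoq (chr16:22965036-22965285, plus), which serves as the reference for the others, Ucp1 (chr8:84016691-84016940, plus), whose ratio to Adipoq varied most, and Lep (chr6:29059966-29060215, plus), which peaked in another library than the rest. Each is read 5′ to 3′ on the strand of its gene, and capitals mark a motif match.
Adipoq: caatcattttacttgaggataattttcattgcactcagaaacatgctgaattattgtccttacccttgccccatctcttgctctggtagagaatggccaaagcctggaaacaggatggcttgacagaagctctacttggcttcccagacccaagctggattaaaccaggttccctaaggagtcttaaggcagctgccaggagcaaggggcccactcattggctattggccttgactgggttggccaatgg
Ucp1: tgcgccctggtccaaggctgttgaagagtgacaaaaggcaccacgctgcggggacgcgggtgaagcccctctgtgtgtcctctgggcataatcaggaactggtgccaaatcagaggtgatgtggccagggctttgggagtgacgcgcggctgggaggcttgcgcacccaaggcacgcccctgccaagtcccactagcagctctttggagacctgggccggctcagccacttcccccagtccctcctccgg
Lep: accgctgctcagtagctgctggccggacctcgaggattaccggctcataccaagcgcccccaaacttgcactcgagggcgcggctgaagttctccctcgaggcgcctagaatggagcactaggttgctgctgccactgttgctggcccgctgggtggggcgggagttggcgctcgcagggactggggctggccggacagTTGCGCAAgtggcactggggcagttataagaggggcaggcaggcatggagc

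Both strands of the members' windows were searched for motifs, of which 3 are given here. The C/EBP motif TTNNGCAA was found only before Lep, at position -51, where the 8 letters read the same on both strands, against 9.34% of 21770 promoters of protein-coding genes. TATAAA and TGACGTCA (the cyclic AMP response element) were in none of the members' windows, against 11.9% and 1.69% of promoters. These are letter matches in a window, not measured binding.

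Adipoq encodes adiponectin, the most adipocyte-restricted of the secreted members. Its normalized count, the count divided by a library size factor, was 219.8, 0, 1009 and 75.8 in ND_C libraries 1 to 4 and 7.64, 27.8, 388 and 373 in ND_B12. It was 749, 3.76, 155 and 0 in D_C and 218, 1108, 0 and 0 in D_B12. Every group therefore held both mice with 218 or more counts and mice with fewer than 30 or none, and the groups overlapped across almost their whole range. The group mean and SD (n = 4 each) of ND_C was 326 ± 464, that of ND_B12 199 ± 209.8, that of D_C 227 ± 355 and that of D_B12 331 ± 528, so the SD was above the mean in all 4.

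Cfd encodes adipsin, or complement factor D, the protease that starts the alternative complement pathway and one of the most abundant adipocyte products. Its normalized counts in libraries 1 to 4 were 1134, 33.8, 4195 and 418 in ND_C and 9.83, 69.5, 683 and 1512 in ND_B12. They were 2336, 37.6, 1744 and 4.30 in D_C and 1579.9, 7307, 23.0 and 6.07 in D_B12. No library was at 0, and the highest was 1701 times the lowest. The highest and the next-to-lowest mouse both belonged to D_B12.

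Lep encodes leptin, the hormone that reports fat stores to the brain and which is made mainly by white adipocytes. It was at 0 in 8 of 16 libraries. The others had 10.7 (ND_C 1), 19.3 (ND_C 3), 1.99 (ND_B12 2), 134 (ND_B12 3), 23.2 (ND_B12 4), 39.0 (D_C 1), 5.02 (D_B12 1) and 9.07 (D_B12 2) normalized counts. In the D_C group only library 1 had a Lep count, and that library is 1 of the 2 whose genotype is in doubt.

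The lipid droplet members followed Adipoq. Plin1 encodes perilipin 1, the coat protein that guards the droplet from lipases, and Cidec and Cidea encode proteins that fuse and enlarge droplets, the latter most abundant in brown fat. Plin1 ran from 0 in D_C 4 and D_B12 4 to 1810.0 in ND_C 3, with 1706 in D_B12 2 and 1616 in D_C 1. Cidec ran from 4.97 in ND_C 2 to 1371 in ND_C 3, with 1370.4 in D_B12 2 and 1083 in D_C 1, and was the only member of the 3 with counts in every library. Cidea (GRCm39 chr18:67476317-67501224, plus strand) was at 0 in 4 libraries and highest in D_C 1 (909), ND_C 3 (834) and D_B12 2 (569.6). Every other library had at most 573 of Plin1, 476 of Cidec and 219 of Cidea, all in ND_B12 3.

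Ucp1 is the defining transcript of heat-producing adipocytes. Its normalized counts in libraries 1 to 4 were 126, 12.9, 2742 and 382 in ND_C and 27.3, 69.5, 382 and 12.6 in ND_B12. They were 1556, 0, 30.2 and 0 in D_C and 63.2, 1009, 0 and 0 in D_B12. ND_C 3 was the highest, and the 4 libraries at 0 were all from diabetic groups. The lowest non-diabetic library had 12.6.

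Fabp4 encodes the adipocyte fatty acid binding protein, which is also known in capillary endothelium and macrophages. Its normalized counts in libraries 1 to 4 were 3094, 2146, 7633 and 3249.6 in ND_C and 2257, 2389, 3695 and 4961 in ND_B12. They were 7744, 5536, 3972 and 3175 in D_C and 4860.0, 8768, 3769.9 and 2894 in D_B12. The range was 4.09-fold, and the 4 libraries in which Adipoq was at 0 still had between 2146 and 3769.9. Fabp4 thus had a floor in every kidney that the other members did not have.

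**Figure D1:**
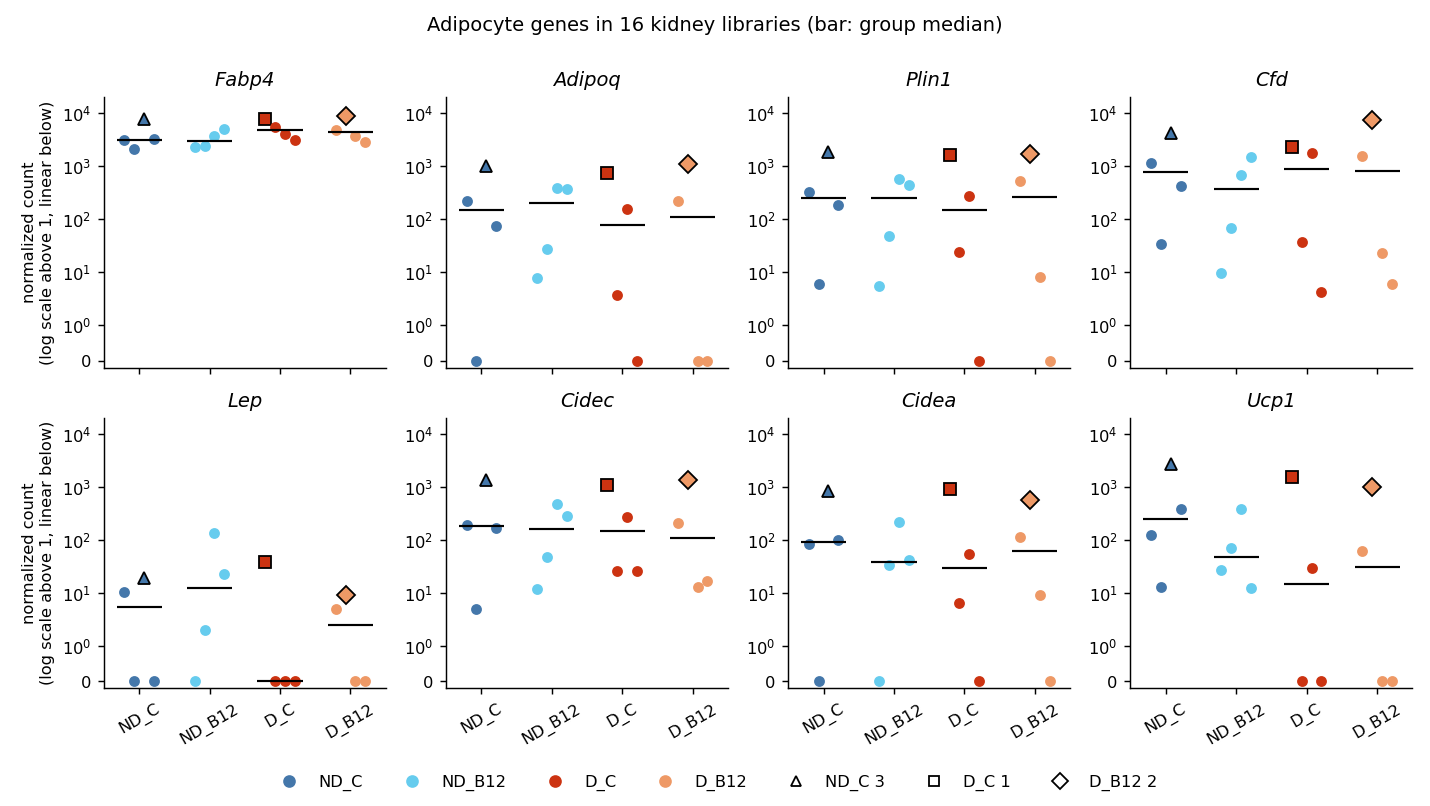
Normalized counts of the 8 members in each of the 16 libraries by labelled group, on an axis that is logarithmic above 1 and linear below, with a bar at each group's median and the libraries ND_C 3, D_C 1 and D_B12 2 outlined. Adipoq ran from 0 to 1108 and Fabp4 from 2146 to 8768, and the outlined libraries were the top 3 for every member but Lep.

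The same 3 mice, 1 in each of 3 labelled groups, carried most of the signal. By the match to the supplement's means, ND_C 3 and D_C 1 would both be in ND_B12. ND_C 3, D_C 1 and D_B12 2 were the 3 highest libraries for 7 of 8 members, the exception being Lep, whose 3 highest were ND_B12 3, D_C 1 and ND_B12 4. The 3 highest libraries held 66.1% of all Adipoq counts, 65.6% of Cfd, 68.0% of Plin1, 68.8% of Cidec, 77.7% of Cidea, 82.8% of Ucp1 and 81.0% of Lep, but 34.4% of Fabp4. Summed without Fabp4, the members had a CPM (count scaled to library size) of 163 in D_B12 2, 145 in ND_C 3 and 112 in D_C 1. The next library had 35.2 (ND_B12 3), and the lowest had 0.291 (D_B12 4). In bulk RNA, fewer adipocytes and less of these transcripts per adipocyte cannot be told apart.

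Levels of different genes are compared per kilobase of annotated exon, joined over all deposited transcripts of a gene. That length was 4769 bases for Plin1, whose main transcript has 3000. It was 4953 for Fabp4, whose protein-coding transcript has 1360. The order of close neighbours, such as Cidec and Plin1, depends on this choice. By the median over 16 libraries, the order of normalized counts per kilobase was Fabp4 (754), Cfd (584), Adipoq (81.5), Cidec (60.0), Plin1 (47.6), Cidea (37.9), Ucp1 (27.9) and Lep (0.296). In the highest library of each gene the values per kilobase were 7749 for Cfd, 1770.3 for Fabp4, 1636 for Ucp1, 784 for Adipoq, 718 for Cidea, 455 for Cidec, 379.5 for Plin1 and 40.0 for Lep. Ucp1 was thus the seventh by the median and the third by the maximum. From Fabp4 to Ucp1, neighbouring medians differed by less than the range of the wider gene over libraries.

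The spread of these genes within groups was among the largest in the table. The SD of log2 CPM (a prior count of 2 was added before the logarithm) within labelled groups was 3.87 for Adipoq, and only 3 of the 25408 genes had a larger one. It was 3.82 for Plin1 and 3.82 for Cfd, 3.67 for Ucp1, 3.49 for Cidea, 2.82 for Cidec and 2.07 for Lep, with 4, 5, 6, 9, 20 and 78 genes above them. Fabp4, at 0.65, had 3122 genes (12.3%) above it, and the median gene had 0.25. Without ND_C 3, D_C 1 and D_B12 2 the SD was still 3.33 for Adipoq with 8 genes above it, 3.50 for Cfd with 6 and 2.39 for Ucp1 with 37. Without D_C 1 and ND_B12 4 it was 3.83 for Adipoq, with 4 genes above.

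Across libraries the members moved together. Among Adipoq, Plin1, Cfd, Cidec and Cidea the 10 pairwise correlations of log2 CPM had Pearson's r from 0.923 to 0.979 and Spearman's rho from 0.893 to 0.958 over 16 libraries. With the 2 libraries farthest from the median left out, r ran from 0.893 to 0.988. Pairs with Ucp1 had r from 0.490 to 0.873, pairs with Lep from 0.504 to 0.769, and pairs with Fabp4 from 0.490 to 0.773. Without ND_C 3, D_C 1 and D_B12 2, over 13 libraries, r with Adipoq was 0.961 for Plin1, 0.936 for Cfd, 0.771 for Ucp1, 0.716 for Lep and 0.400 for Fabp4. These values describe points that share a library, its depth and its dissection, and the libraries at 0 and those at high level set much of each r.

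**Figure D2:**
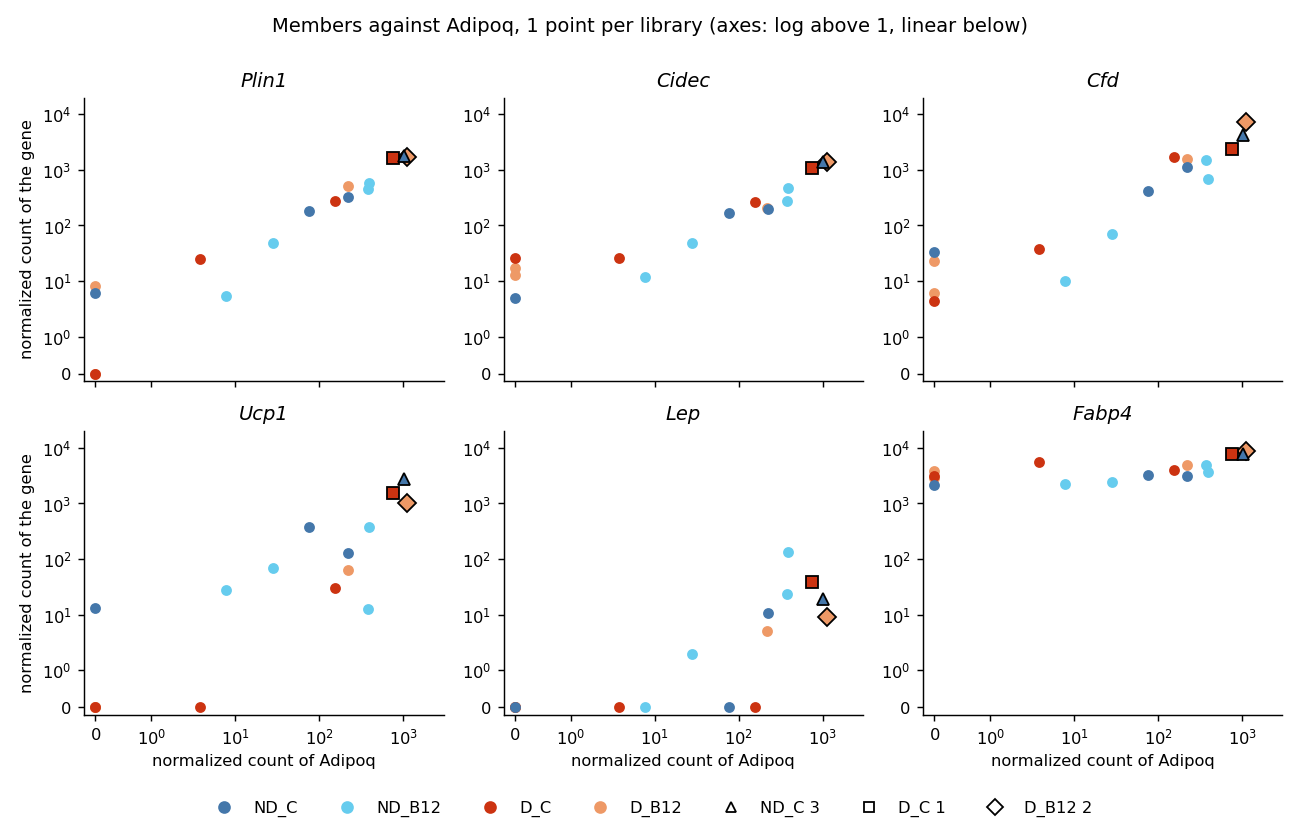
Normalized counts of Plin1, Cidec, Cfd, Ucp1, Lep and Fabp4 against Adipoq, 1 point per library colored by labelled group, on axes that are logarithmic above 1 and linear below. Plin1, Cidec and Cfd rise with Adipoq in a narrow band (r from 0.957 to 0.975 on the log2 CPM scale), Ucp1 and Lep scatter more (0.856 and 0.769), and Fabp4 stays at 2146 or more where Adipoq is at 0.

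Ratios within a library remove the amount of adipocyte RNA as such, and they were formed from raw counts in the 9 libraries with at least 50 Adipoq counts. These were ND_C 1, 3 and 4, ND_B12 3 and 4, D_C 1 and 3, and D_B12 1 and 2. Plin1 was the steadiest, with between 1.21 (ND_B12 4) and 2.39 (ND_C 4) counts per Adipoq count, a 1.98-fold range. Cidec lay between 0.749 (ND_B12 4) and 2.19 (ND_C 4).

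Among ratios above 0, Ucp1 varied most against Adipoq, over a 150-fold range. It had 5.04 counts per Adipoq count in ND_C 4 (exact 95% binomial interval 3.95 to 6.50) and 0.0337 in ND_B12 4 (0.0178 to 0.0583). Both were non-diabetic by label, and ND_B12 4 is 1 of the 2 libraries whose genotype is in doubt. The others had 2.72 (ND_C 3), 2.08 (D_C 1), 0.984 (ND_B12 3), 0.911 (D_B12 2), 0.573 (ND_C 1), 0.290 (D_B12 1) and 0.195 (D_C 3). The intervals of the extremes lay far apart, and they cover counting error only.

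Cidea per Adipoq had the same extremes as Ucp1, from 0.114 in ND_B12 4 (0.0815 to 0.156) to 1.33 in ND_C 4 (0.983 to 1.80). ND_B12 4 thus had Adipoq (373 normalized counts) and Cfd (1512) among the higher libraries, with little Ucp1 (12.6) and Cidea (42.5). ND_C 4, with 75.8 of Adipoq, had 382 of Ucp1.

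Cfd per Adipoq lay between 1.76 in ND_B12 3 (1.53 to 2.03) and 11.3 in D_C 3 (9.66 to 13.3). D_B12 1 had 7.26 and D_B12 2 had 6.59, whereas D_C 1 had 3.12 and the non-diabetic libraries had between 1.76 and 5.52. The 3 libraries labelled diabetic other than D_C 1 were thus the highest, a pattern noticed in the ratios and not tested. By the supplement, D_C 1 would be non-diabetic and ND_B12 4, with 4.05, diabetic.

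Lep per 100 Adipoq counts was 34.6 in ND_B12 3 (27.5 to 43.2), 6.22 in ND_B12 4 (3.94 to 9.39) and 5.20 in D_C 1 (3.78 to 7.00). It was 4.85 in ND_C 1, 2.30 in D_B12 1, 1.91 in ND_C 3 and 0.818 in D_B12 2 (0.391 to 1.51). No Lep count was seen in ND_C 4 and D_C 3, where the upper limits of the exact 95% intervals were 4.78 and 2.14 per 100 Adipoq counts. ND_B12 3 therefore stood apart, with 108 Lep counts beside 312 of Adipoq, while D_B12 2 had 10 beside 1222.

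**Figure D3:**
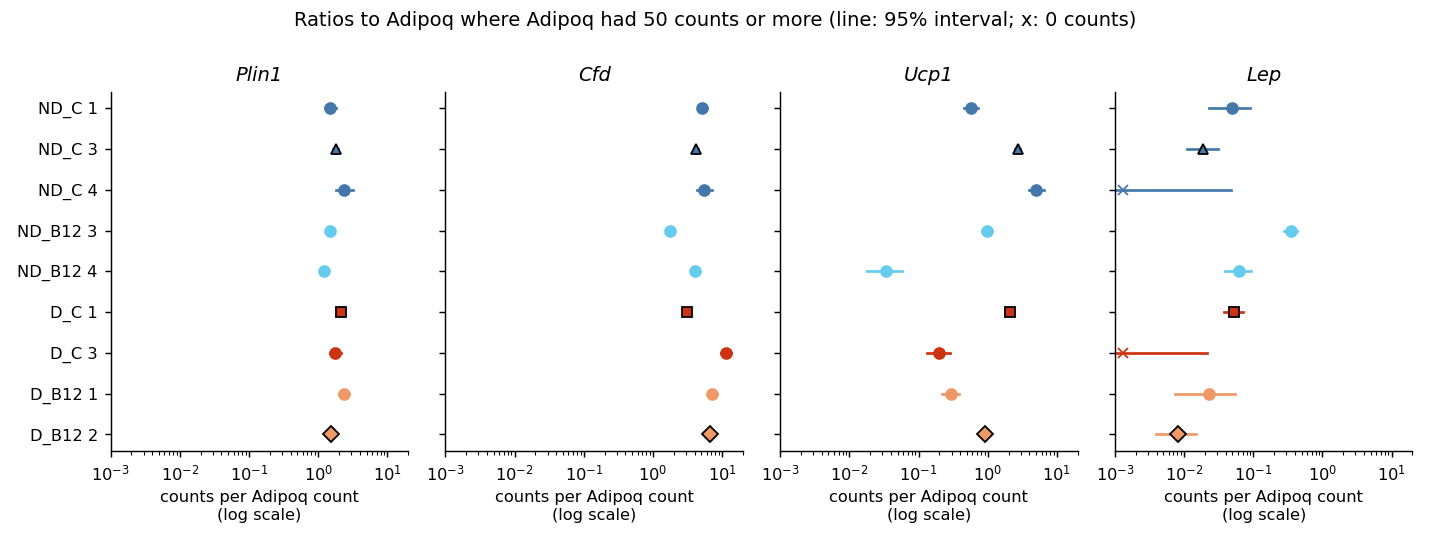
Counts of Plin1, Cfd, Ucp1 and Lep per Adipoq count, on a logarithmic axis, in the 9 libraries with at least 50 Adipoq counts, with lines for exact 95% binomial intervals and a cross for 0 counts. Plin1 stayed between 1.21 and 2.39, while Ucp1 ran from 0.0337 in ND_B12 4 to 5.04 in ND_C 4 and Lep reached 0.346 in ND_B12 3.

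No difference of a member between groups was larger than the spread between mice by the tests made. By edgeR's quasi-likelihood test with Benjamini-Hochberg adjustment over all 25408 genes, 0 of 8 members passed an adjusted p of 0.05 in any of 7 comparisons, 0 had an unadjusted p below 0.05, and DESeq2 also called 0. In none of the 6 pairwise or averaged comparisons were the groups of a member without overlap. Of all genes, the groups did not overlap for 9.44% (D_C minus ND_C), 11.7% (D_B12 minus ND_B12), 6.58% (D_B12 minus D_C), 4.81% (ND_B12 minus ND_C), 0.386% (diabetes over both treatments) and 0.00787% (B12 over both genotypes).

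For diabetes over both treatments, 3.02% of all genes were called (767 of 25408), and 19.4% had an unadjusted p below 0.05. The log2 fold changes, diabetic minus non-diabetic, were 0.47 for Fabp4 (SE 0.29, adjusted p = 0.397 by edgeR), 0.11 for Adipoq (SE 1.18) and 0.39 for Plin1 (SE 1.16). They were 0.74 for Cfd (SE 1.17), -1.48 for Lep (SE 1.19), 0.34 for Cidec, 0.60 for Cidea and 0.07 for Ucp1 (SE 1.27). The members' median was 0.37 against 0.01 over all genes, and their standard errors of up to 1.27 compare with a median of 0.125. Without D_C 1 and ND_B12 4 the value was 0.47 for Fabp4 and 0.95 for Cfd, but -0.68 for Adipoq, -0.55 for Plin1, -0.42 for Cidec, -1.29 for Cidea and -2.77 for Ucp1, so the direction of 5 members turned on those libraries. Single libraries were enough, since Adipoq was -0.94 without D_C 1 and -0.98 without D_B12 2, and Ucp1 was -2.57 and -1.76.

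Split by treatment, diabetes called 1.66% of genes in untreated kidneys (D_C minus ND_C) and 0.823% in treated ones (D_B12 minus ND_B12), and 0 of 8 members in either. Unadjusted, p was below 0.05 for 18.6% and 17.0% of genes. The smallest adjusted p of any member in the 7 comparisons was that of Lep in D_B12 minus ND_B12, with group means of 3.52 ± 4.39 and 39.9 ± 63.8 normalized counts (SD, n = 4), a log2 fold change of -3.39 (SE 1.70) and an adjusted p of 0.328 by edgeR. The ND_B12 mean rested on ND_B12 3, and without D_C 1 and ND_B12 4 the fold change was -3.57.

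For B12 in diabetic kidneys (D_B12 minus D_C) edgeR called 0 of 25408 genes (percent called 0.0%), 13.6% had an unadjusted p below 0.05, and DESeq2 called 670. The members' log2 fold changes were -0.01 for Fabp4 (SE 0.41), 0.55 for Adipoq (SE 1.67), 0.22 for Plin1, 1.11 for Cfd (SE 1.65), -1.40 for Lep, 0.20 for Cidec, -0.47 for Cidea and -0.55 for Ucp1 (SE 1.78). Leaving out D_C 1 and ND_B12 4 gave 2.65 for Adipoq and 4.72 for Ucp1. In non-diabetic kidneys (ND_B12 minus ND_C, 0.0% called by edgeR, 7.62% at an unadjusted p below 0.05 and 6 genes by DESeq2) the largest member differences were 2.42 for Lep (SE 1.59, adjusted p = 0.766 by edgeR) and -2.76 for Ucp1 (SE 1.92, adjusted p = 0.788 by edgeR), or 2.60 and -2.37 without D_C 1 and ND_B12 4. In the sets that matched the supplement's means, Ucp1 would have 2742, 69.5, 382 and 1556 normalized counts in ND_B12. Its ND_C values would be 126, 12.9, 382 and 27.3, the reverse direction, which was not tested. The average effect of B12 and the interaction also called 0.0% of genes by edgeR and 0 of 8 members, with unadjusted p below 0.05 for 5.2% and 16.1% of genes, and DESeq2 called 6 and 943 genes. The smallest standard error of a member in the interaction was 0.58 on the log2 scale.

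**Figure D4:**
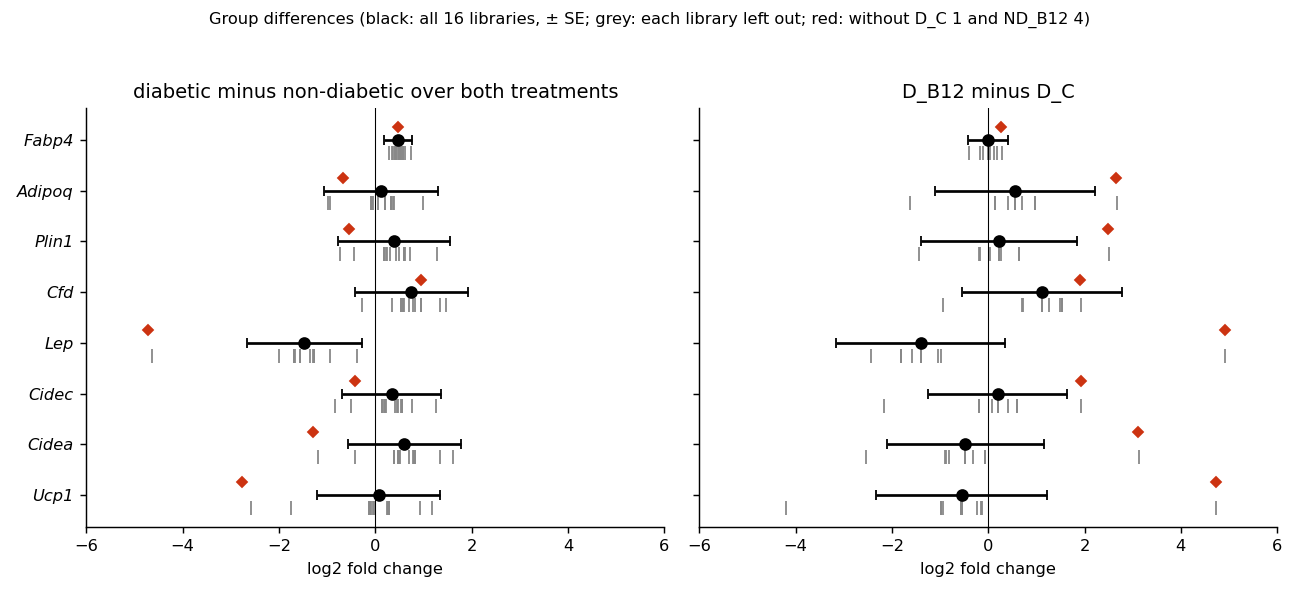
Log2 fold changes of the 8 members for diabetes over both treatments and for B12 in diabetic kidneys, with the value of all 16 libraries and its SE in black, the values with each library left out in turn in grey, and the values without D_C 1 and ND_B12 4 in red. The SE of Fabp4 was 0.29 and 0.41, whereas Ucp1 moved from 0.07 to -2.77 (diabetes) and from -0.55 to 4.72 (B12) without the 2 libraries.

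Dates do not separate from groups in these comparisons. Only 2 label dates held libraries of different groups. On day 14 after the first date, ND_C 4 had 75.8 normalized counts of Adipoq and ND_B12 1 had 7.64. On day 21, D_C 1 had 749 and ND_B12 2, 3 and 4 had 27.8, 388 and 373. With so few libraries a date, no difference within a date was tested.

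Other adipocyte genes followed the same libraries. Of 14 further adipocyte-restricted genes, 7 had r of at least 0.8 with Adipoq, a level reached by 0.283% of all genes tested. The summed normalized count of all 14 was 13312 to 18164 in ND_C 3, D_C 1 and D_B12 2 and 5376 to 11492 in the other 13 libraries. Most of that sum came from Car3 and Aqp7 (means 4885 and 2293), whose r with Adipoq was below 0.8. Acvr1c, an activin receptor of adipocytes, was the gene most like Adipoq (r = 0.990, 0 to 284 normalized counts). It was followed by Slc36a2 (0.970), Apol6 (0.968), Adig (0.966), Retn (0.953), which encodes the adipokine resistin, Adrb3 (0.942), the adrenergic receptor that triggers fat breakdown, Retnla (0.922), A530053G22Rik (0.914) and Nat8l (0.907). The other 7 were below that level. They were Trarg1 (0.793), Lgals12 (0.702), Slc7a10 (0.662), Car3 (0.633), a carbonic anhydrase and the most abundant gene of the list (mean 4885), Pnpla3 (0.547), Hcar1 (0.389) and Aqp7 (0.09), the glycerol channel, which is also known in proximal tubules and had at least 1780 counts in every library. Plin4, a droplet coat gene, was at 0.896. In no comparison was any of the 14 called.

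The genes most like Ucp1 were in part those most like Adipoq. Among the 10 most like Ucp1 were Hk2 (0.946), Proca1 (0.924), Otop1 (0.923), Fxyd3 (0.912), Celf2 (0.905), Nat8l (0.904), Cox8b (0.899), Adig (0.899) and Kcnk3 (0.895), of which Otop1, Cox8b and Kcnk3 were on the list of thermogenic genes. Adig and Nat8l were also among the 10 most like Adipoq, and with Adipoq Otop1 had r of 0.901, Kcnk3 0.826 and Cox8b 0.818. Of the 14 measured genes on that list, 4 had r of at least 0.8 with Adipoq. Cox8b, a heart and brown fat form of a cytochrome oxidase subunit, ran from 0 to 659 normalized counts. The 3 most abundant genes of the list, Gk, Ucp2 and Tmem26, with means of 56394, 6974 and 2647, had r of -0.15, -0.21 and -0.12 with Adipoq. Cpt1b, the mitochondrial gate for fatty acids, was the list's only called gene. It was 0.48 (log2) higher in D_C than in ND_C (adjusted p = 0.0340 by edgeR) and 0.29 higher in diabetes over both treatments (adjusted p = 0.0321 by edgeR), with r of 0.09 with Adipoq. The first call was lost without ND_C 1, 2 or 3 or D_C 2, 3 or 4, with adjusted p of up to 0.107 by edgeR, and the second without ND_C 2, ND_B12 1, 2 or 3, D_C 4, or D_B12 2 or 3, with adjusted p of up to 0.0733. Without D_C 1 and ND_B12 4 the differences were 0.48 and 0.31, both still called.

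General fat-handling genes tracked Adipoq less closely. Of 21 genes of lipid storage and lipolysis, 0 had r of at least 0.8 with Adipoq, though Acsl1 (0.663) and Lipe (0.661), the hormone-sensitive lipase, came near the 0.666 of Fabp4. With Ucp1, the fatty acid synthesis genes Acaca, Fasn and Scd1 had r of 0.835, 0.798 and 0.740. The sum of the list was 284665 in ND_C 3 and 272009 in D_C 1, above the 206723 to 259144 of the other 13 libraries, but 228285 in D_B12 2. The 3 most abundant, the fatty acid transporter Cd36, the lipase Lpl and the glycerol phosphate dehydrogenase Gpd1, had means of 40931, 35094 and 30855 normalized counts and r of -0.44, 0.24 and 0.02 with Adipoq. By edgeR 0 of these 21 genes were called in diabetes over both treatments, 3 had an unadjusted p below 0.05, and their median log2 fold change was 0.00 against 0.01 over all genes. Among relatives of the members, the droplet coat genes Plin2, Plin3 and Cideb had r of -0.09, -0.17 and -0.12 with Adipoq, and Plin5 0.423. Of the other fatty acid binding proteins, Fabp5 (mean 364) had r of 0.708, higher than Fabp4 itself, whereas Fabp3 (mean 2001) had -0.05 and Fabp7 (320.4) 0.207. Of 13 fat-cell regulators, 2 had r of 0.8 or more, Zfp423 (0.845) and Ebf2 (0.821), against 0.283% of all genes tested. Pparg, the master regulator of adipocytes, had 0.719, Ebf1 0.641, Cebpd 0.614 and Cebpa 0.527, whereas the abundant Ppargc1a and Klf15 had -0.47 and 0.05. Prdm16, a brown fat regulator with r of 0.02 with Adipoq, was 0.46 (log2) higher in D_C than in ND_C (adjusted p = 0.0293 by edgeR), a call lost without ND_C 1, 2 or 3 or D_C 4 (up to 0.104). Without D_C 1 and ND_B12 4 the difference was 0.40 (adjusted p = 0.0163 by edgeR). In treated kidneys (D_B12 minus ND_B12) the log2 fold change of Prdm16 had the other sign, -0.30 (adjusted p = 0.0901 by edgeR). Over both treatments it was 0.08 (adjusted p = 0.523 by edgeR).

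Receptors and substrates of the secreted members were measured in the same bulk kidney libraries, so their cell of origin is not known. Adipor1 and Adipor2, the adiponectin receptors, had means of 11638 and 8621 normalized counts and were called in no comparison. Lepr, the leptin receptor, had 1116 to 1385 in D_C and 509.9 to 739 in ND_C, without overlap (as for 9.44% of all genes in this comparison), a log2 difference of 0.93 (SE 0.21, adjusted p = 0.0443 by edgeR). That call was lost without ND_C 1, 2 or 3, ND_B12 2, D_C 2, 3 or 4, or D_B12 2, with adjusted p of 0.056 to 0.135, whereas without D_C 1 and ND_B12 4 the difference was 0.97 (0.0246 by edgeR). Cfb, the complement protein that adipsin cleaves, was 0.50 (log2) lower in diabetic than in non-diabetic kidneys over both treatments (SE 0.11, adjusted p = 0.0297 by edgeR), with means of 19839 in D_C and 18405 in D_B12 against 25711 in ND_C and 28420 in ND_B12. Its call was lost without ND_C 1, 2 or 3, ND_B12 1, 2 or 3, D_C 3 or 4, or D_B12 1 or 3, with adjusted p of 0.054 to 0.071, whereas without D_C 1 and ND_B12 4 it had a log2 fold change of -0.64 (adjusted p = 0.000619 by edgeR).

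Markers of the precursors of fat cells had a median r of -0.03 with Adipoq, and most are also known in kidney stroma or vessels. In D_C against ND_C, where 1.66% of all genes were called, 2 of 7 were called, Pdgfra (log2 difference 0.51, adjusted p = 0.0408 by edgeR) and Cd34 (0.62, adjusted p = 0.0469 by edgeR). Ly6a, also known in endothelium, was 0.50 (log2) lower in diabetes over both treatments (SE 0.08, adjusted p = 0.0121 by edgeR), and Cd34 was 0.41 higher (adjusted p = 0.0439 by edgeR). Dpp4, another abundant gene of the list, was called in no comparison. In D_C against ND_C the endothelium list had 0 of 7 measured genes called by edgeR but 7 of 7 higher at an unadjusted p below 0.05 (18.6% of all genes) and a median of 0.38, and its part in these values was not tested. Without D_C 1 and ND_B12 4, Pdgfra was at 0.53 and Cd34 at 0.74 in D_C against ND_C, and over both treatments Cd34 was at 0.54 and Ly6a at -0.60, all still called. This check keeps D_C 2, 3 and 4 in D_C, where the match to the supplement would make them treated. Left out singly, no library ended the call of Ly6a. That of Pdgfra was lost without ND_C 1, 2 or 3, ND_B12 2, D_C 2, 3 or 4, or D_B12 2 (adjusted p of up to 0.122 by edgeR). Cd34 was the least stable, since leaving out any of 11 libraries, among them all 4 of ND_C, ended its call in D_C against ND_C (up to 0.138), and any of 12 the other, all but ND_C 1, ND_B12 4, D_C 1 and D_B12 4 (up to 0.0920). Ly6a had 16338 to 17045 normalized counts in D_B12 and 19176 to 30521 in ND_B12, which did not overlap, as for 11.7% of all genes in that comparison.

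Markers of other cell types that a kidney dissection could hold were summed per library. The 4 markers of urothelium, which lines the renal pelvis beside the hilar fat, had a median r of 0.775 with Adipoq, with 1189 to 1798 summed normalized counts in ND_C 3, D_C 1 and D_B12 2 and 59.5 to 1348 in the other 13. The 5 mesothelium markers had a median r of 0.572, with 0.782 for Upk1b, 0.666 for Msln, 0.572 for Lrrn4 and 0.415 for Upk3b, and -0.41 for Gpm6a, which made up most of their sum. The part of either cell type in the members' levels was not tested. Endothelium (26160.3 to 30605 against 27247 to 37857) and macrophage markers (4255 to 5942 against 4103 to 7136) did not stand higher in the 3 libraries. The 7 pancreas markers summed to at most 4.53, and those of adrenal gland, skeletal muscle, liver and lymphocytes had median r between -0.25 and 0.15 with Adipoq. Only 4 of 12 adrenal and 2 of 11 skeletal muscle markers had enough counts to enter these medians.

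The transcript table divided the counts of some members. Ucp1 and Cidea have 1 deposited transcript each and the Lep counts were all on 1 of 2, while Plin1-206 held 90.5% of Plin1 and Cfd-201 90.4% of Cfd. Most of Fabp4, between 52.2% and 60.3% in each library, was assigned to Fabp4-202, a single-exon form of 4231 bases annotated as a retained intron, in libraries with and without Adipoq alike. Cidec-201 and Cidec-202, which start 4 bases apart, took between 31.8% and 73.9% and between 23.3% and 67.6% in the 9 libraries with at least 100 Cidec counts, a split that read assignment can hardly resolve. Cidec-203, which starts elsewhere and encodes 249 rather than 239 codons, took at most 5.39%, and had no count in any of the 7 other libraries.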

How the data were processed

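Kidney total RNA of 16 mice was sequenced, with 4 libraries in each labelled group. Per the labels and the study's methods, RNeasy RNA was made into Watchmaker Total RNA libraries, demultiplexed with bcl2fastq 2.20.0 and aligned by STAR against GRCm39 (GENCODE vM35). The authors then deposited estimated counts per gene and per transcript from StringTie and its prepDE script, which were whole numbers. Whether counting used the strand is not given in the sources used here, and reads shared by overlapping genes or transcripts were divided by that software.

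The 8 members and all gene lists were chosen with earlier results of these data known. Normalized counts are counts divided by DESeq2's median-of-ratios size factors. Genes whose counts summed to 100 or more were tested by edgeR 4.0.16 in R 4.3.3 (TMM, glmQLFit and glmQLFTest, 1 fit of the 16 libraries, group means), two-sided, with Benjamini-Hochberg adjustment at 0.05 over 25408 genes. These p-values measure the spread between libraries of 1 mouse each. DESeq2 1.42.0, 2 other filters, other size factors, the compared groups alone, label date as a covariate, a replicate block and the leaving out of libraries were alternatives. The tests were tried on simulated data. Library pairs correlated at 0.972 to 0.985, and none was a duplicate.

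Genes named are the members, from each list of fat-cell genes the 3 most abundant and up to 5 called genes, and the 10 genes most like Adipoq or Ucp1. The other genes named for their r, such as Ebf2, Fasn or Upk1b, were chosen after their values were seen. Lists of other cell types are given as sums. Sequences and gene positions were read from the GRCm39 genome with GENCODE vM39. Ratios to Adipoq carry exact Clopper-Pearson 95% intervals. Python 3.11.15 and pandas 2.3.3 were used. No table of proteins was used here. Of the 10 genes most like Adipoq or Ucp1, 1 is not reported here, nor is the window of 1 member or its motif matches.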

Additional observations from a re-analysis of the deposited data

Results flagged for a closer look

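A group of 4 was set apart where the gap between its highest or lowest library and the next was a larger share of the group's whole range than Dixon's 95% critical value for 4 samples. Of 32 sets of a member and a group, 10 met this, where chance gives about 1 in 20 for normally distributed values, which these skewed counts are not. Both ends of a group were looked at, and all 10 were at the high end. For Lep in D_C the other 3 libraries were at 0. In ND_C the high library was ND_C 3, with 1371 normalized counts of Cidec, 834 of Cidea and 2742 of Ucp1. In D_C it was D_C 1, with 1616 of Plin1, 39.0 of Lep, 909 of Cidea and 1556 of Ucp1. In D_B12 it was D_B12 2, with 1370.4 of Cidec and 1009 of Ucp1. In ND_B12 only Ucp1 stood apart in this way, with 382 in ND_B12 3. The 3 libraries first named were the highest for 7 of 8 members, so these are not 10 independent results. The interaction between diabetes and B12 passed edgeR's test for 0 of 8 members.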

How the results depend on the processing

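Over 25 alternatives and 7 comparisons, 0 of 1376 tests of members had an adjusted p below 0.05, with 5 that DESeq2 left as NA. The smallest was 0.112, for Ucp1 in D_C minus ND_C without D_C 1 and ND_B12 4. Directions, by contrast, turned often, and the cause was not tested. The values below are log2 fold changes.

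With label date as a covariate, Lep became 4.42 (diabetes over both treatments) and 4.95 (D_B12 minus ND_B12), and for D_B12 minus D_C Fabp4 became 1.12, Lep 5.93, Cidea 5.67 and Ucp1 7.78. With a replicate block, diabetes gave -0.019 for Adipoq and -0.41 for Ucp1, and D_B12 minus D_C 0.30 for Cidea. The replicate numbers do not pair the mice, since only 3 of 24 same-number pairs correlated above 0.1, and the block called 0 members and moved the calls over all genes from 423 to 269 (D_C minus ND_C), from 209 to 25 (D_B12 minus ND_B12) and from 767 to 478 (diabetes). Only 5 libraries were most like a library of their own number.

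Without D_C 1 and ND_B12 4, diabetes gave -0.68 for Adipoq, -0.55 for Plin1, -0.42 for Cidec, -1.29 for Cidea and -2.77 for Ucp1, and D_B12 minus D_C 0.27 for Fabp4, 4.91 for Lep, 3.12 for Cidea and 4.72 for Ucp1. Without ND_C 3, D_C 1 and D_B12 2, an alternative chosen after seeing the data, diabetes gave -1.17 for Adipoq, -0.71 for Plin1, -0.79 for Cidec, -1.22 for Cidea and -3.30 for Ucp1, and D_B12 minus D_C -0.14 for Cfd, 3.88 for Lep, -0.42 for Cidec, 1.07 for Cidea and 1.08 for Ucp1. Lep was then at 0 in every D_C library, so its size depends on the prior count.

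With each library left out in turn, diabetes ranged from -0.98 to 0.98 for Adipoq, -0.74 to 1.27 for Plin1, -0.28 to 1.47 for Cfd, -0.84 to 1.26 for Cidec, -1.20 to 1.62 for Cidea and -2.57 to 1.17 for Ucp1. For D_B12 minus D_C the ranges were -0.41 to 0.28 for Fabp4, -1.63 to 2.67 for Adipoq, -1.45 to 2.51 for Plin1, -0.94 to 1.92 for Cfd, -2.44 to 4.92 for Lep, -2.15 to 1.93 for Cidec, -2.53 to 3.13 for Cidea and -4.20 to 4.74 for Ucp1. Of the called genes outside the members, Ly6a kept its call in 23 of 24 alternatives (edgeR's adjusted p was 0.621 with label date), whereas in D_C minus ND_C Cd34 kept it in 10 of 25, Pdgfra in 12, Lepr in 13, Cpt1b in 16 and Prdm16 in 18, and over both treatments Cd34 in 9 of 24, Cfb in 13 and Cpt1b in 14. Other filters, other size factors, DESeq2 and fits of the compared groups alone turned no member's direction. Over all genes, DESeq2 called 1637, 1189, 670 and 1837 genes (D_C minus ND_C, D_B12 minus ND_B12, D_B12 minus D_C, diabetes), label date as a covariate 2, 29, 204 and 0, and no filter 63, 35, 0 and 427, where edgeR had called 423, 209, 0 and 767. The interaction went from 0 to 943, 753 and 147 with DESeq2, label date and the block. Of single libraries, D_C minus ND_C had 0 calls without ND_C 2 and 1551 without D_C 1.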
